A study of Mus musculus with 2 samples.

Results

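The genes described here encode the signalling parts of the T-cell receptor complex and a few surface proteins that T lymphocytes carry. They are the CD3 chains Cd3d, Cd3e, Cd3g and Cd247, the kinases Lck and Zap70, the surface glycoproteins Cd2, Cd5 and Thy1, and the interleukin-7 receptor chain Il7r. Their RNA was measured in tibiae of TERC-/- mice, which lack telomerase and are labelled G3, and in tibiae of wild-type TERC+/+ mice. Members were found by their gene symbol in the annotation of the array's probes. Of the 10 genes, 9 had a probe under their symbol here, with 19 probes among the 45281 of the array, and Lck was not analysed here.

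Both groups were female C57BL/6 mice aged 22 weeks that had received no treatment. Each was represented by 1 Illumina bead array, hybridised with 1 mixture of tibia RNA from 3 mice. The TERC-/- mice lack Terc, the RNA template of telomerase, in all cells. With 1 array per genotype there was no replicate and no test, so every difference below compares 2 pools and the spread between mice is unknown.

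The T-cell receptor recognises antigen through a pair of variable chains whose own tails are too short to signal. Signalling depends on the CD3 chains, whose tails carry tyrosine motifs that Lck phosphorylates and to which Zap70 then binds. Interleukin-7, made by stromal cells, keeps T cells and early B cells alive through Il7r. Bone marrow holds a minority of mature T cells among far more numerous myeloid, red-cell and B-lineage cells, and whole-tibia RNA also includes that of bone, cartilage and adjoining tissue.

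The starts of Cd3g, Cd3d and Cd3e lie together on mouse chromosome 9. The RefSeq starts of Cd3g and Cd3d are 1355 bases apart and point away from each other, and that of Cd3e lies a further 27825 bases from Cd3d. The 250 bases before the start of each of these 3 genes, and of Il7r, are shown because they are the 3 receptor chains that were lower together and the member with the greatest difference in size. Promoter windows in RefSeq build GRCm38.p6 were matched for 8 of the 10 members by symbol, with 11 windows in all. The sequences are written 5′ to 3′ on the strand of the gene. Capitals mark matches, on either strand, to 5 short motifs, namely GGAA (the core of ETS family sites), TGTGGT (the RUNX family), CANCTG (the E-box), CTTTGA (the TCF and LEF family) and GATAAG (the GATA factors).
Cd3d, chr9:44981536-44981785, plus strand: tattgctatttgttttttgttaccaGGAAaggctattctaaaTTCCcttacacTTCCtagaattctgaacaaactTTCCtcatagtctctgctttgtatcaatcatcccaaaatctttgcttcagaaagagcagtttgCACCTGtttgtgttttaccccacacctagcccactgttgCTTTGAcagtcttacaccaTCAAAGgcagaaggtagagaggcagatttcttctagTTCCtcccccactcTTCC
Cd3g, chr9:44980432-44980681, minus strand: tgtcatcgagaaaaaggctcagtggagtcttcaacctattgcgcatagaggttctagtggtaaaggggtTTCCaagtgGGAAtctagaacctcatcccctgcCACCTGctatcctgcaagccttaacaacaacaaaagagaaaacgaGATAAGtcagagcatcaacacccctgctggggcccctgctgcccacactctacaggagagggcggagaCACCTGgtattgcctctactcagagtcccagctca
Cd3e, chr9:45009612-45009861, minus strand: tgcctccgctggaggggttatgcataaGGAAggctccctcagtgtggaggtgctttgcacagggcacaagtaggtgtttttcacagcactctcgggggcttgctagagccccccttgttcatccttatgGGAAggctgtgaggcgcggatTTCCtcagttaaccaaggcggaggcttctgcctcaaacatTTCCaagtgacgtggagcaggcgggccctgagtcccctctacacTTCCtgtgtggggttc
Il7r, chr15:9529877-9530126, minus strand: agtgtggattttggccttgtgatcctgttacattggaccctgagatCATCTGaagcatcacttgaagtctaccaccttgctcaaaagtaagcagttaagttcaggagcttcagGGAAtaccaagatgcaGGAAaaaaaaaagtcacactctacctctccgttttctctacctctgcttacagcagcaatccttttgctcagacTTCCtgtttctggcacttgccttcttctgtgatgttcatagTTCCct

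All 4 windows held GGAA, with 6 matches in Cd3d, 5 in Cd3e, 2 in Cd3g and 4 in Il7r, and so did 93.4% of the 32851 promoter windows of this length. CTTTGA was found 2 times in Cd3d, against 13.8% of all windows with a match, and GATAAG 1 time in Cd3g, against 6.55%. CANCTG was present in Cd3d, Cd3g and Il7r and in 44.8% of all windows. TGTGGT, present in 14% of all windows, was in none of these 4 windows and in 1 window each of Lck and Zap70. No pair of different motifs overlapped in the 11 windows. A match describes these letters and does not show a binding site.

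Raw intensity had a median of 138 on the TERC-/- array and 127 on the TERC+/+ array. A probe counted as detected where its deposited detection p was under 0.01, which held for 15363 probes in TERC-/- and 16640 in TERC+/+. The probe for Terc was at background in both pools, and the knockout could not be checked with it. The bone transcript Col1a1, a chain of type I collagen, was detected on both arrays, with raw intensities of 2755 in TERC-/- and 11750 in TERC+/+. Of the 8 T-cell markers with a probe (Cd3d, Cd3e, Cd3g, Cd247, Cd4, Cd8a, Cd8b1 and Bcl11b), 4 were detected in TERC-/- and 6 in TERC+/+. Cd247 and Cd8a were not detected on either array. The summed normalized intensity of the 6 was 4643 in TERC-/- and 3184 in TERC+/+, a sum that the bright Cd8b1 probe described further on dominates.

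Transcripts of Cd3d, Cd3e, Cd3g, Cd2 and Il7r were 2-fold or more lower in the TERC-/- pool, and Thy1 was lower by less than 2-fold. Of the 6 members detected on both arrays, all 6 were lower in TERC-/-, against 46% of all genes detected on both arrays, and 5 of them by 2-fold or more. Over all 8781 genes detected on both arrays, 8.95% were 2-fold or more lower and 7.29% were 2-fold or more higher. The median log2 difference of the 6 members, TERC-/- minus TERC+/+, was -1.43, against 0.05 over those genes. These differences are on normalized log2 values after background correction. In the deposited normalized values, and with the background left in, Il7r was the only member past 2-fold, against 5.08% and 4.89% of all detected genes 2-fold or more lower. In bulk RNA, fewer T cells and less of these RNAs per T cell cannot be told apart. Nor can a change in other cells that carry some members be separated from these.

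**Figure D1:**
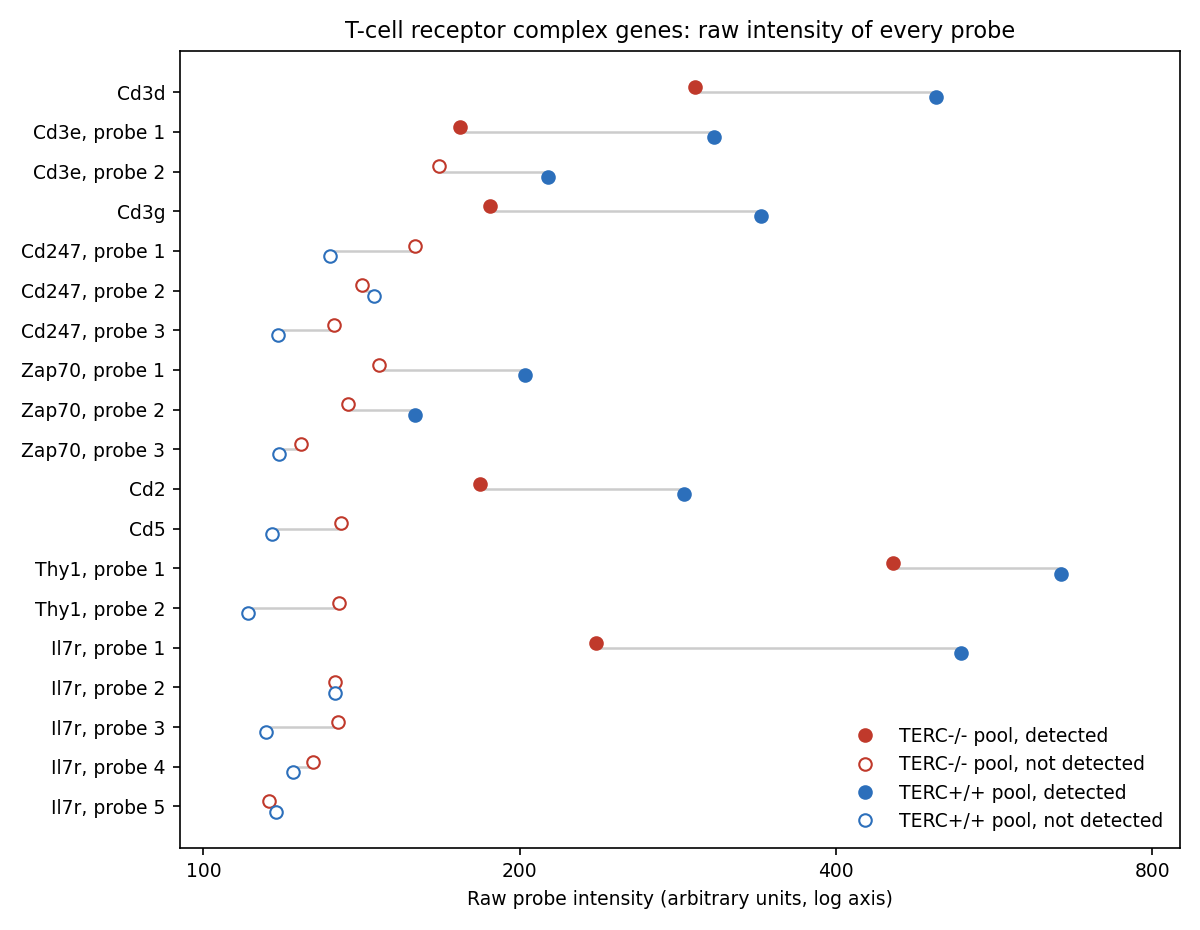
Raw intensity of each of the 19 member probes (x axis, arbitrary units, log scale) in the TERC-/- pool (red) and the TERC+/+ pool (blue), with filled points detected at p under 0.01 and open points not detected. The 9 probes with a filled point all lie lower in TERC-/-, and the 10 probes with open points only lie between 110 and 159 on both arrays.

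The CD3 gamma, delta and epsilon chains pair with each other beside the antigen-binding chains and carry the signal into the cell. Cd3d, the delta chain, had raw intensities of 293 in TERC-/- and 498 in TERC+/+, and its only probe had a detection p of 0 on both arrays. On the normalized log2 scale these were 7.53 in TERC-/- and 8.63 in TERC+/+, a difference of -1.10 or 2.14-fold. Cd3d was the brightest of the 3 chains on both arrays and showed the smallest fold among them.

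Cd3g, the gamma chain, had raw intensities of 188 in TERC-/- and 340 in TERC+/+, with log2 values after normalization of 6.31 in TERC-/- and 7.88 in TERC+/+. The difference was -1.57, or 2.97-fold. Cd3e, the epsilon chain that every CD3 dimer of this pair contains, had raw intensities of 176 in TERC-/- and 306 in TERC+/+ on its brighter probe. The difference was -1.60, or 3.04-fold. Its other probe had raw intensities of 168 in TERC-/- and 213 in TERC+/+ and was just short of detection in TERC-/-, at a detection p of 0.0107. That probe differed by -0.89, so both Cd3e probes were lower in TERC-/- and the size depended on the probe.

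The summed normalized intensity of Cd3d, Cd3e and Cd3g was 330 in TERC-/- and 832 in TERC+/+. All 3 raw intensities were lower in the TERC-/- pool although that array had the higher median intensity. Among all probes detected on at least 1 array, 41.8% had a lower raw intensity in TERC-/-, and among the 9 detected member probes 9 did. A member probe detected in TERC+/+ only, of which there were 3, entered this count because it was high there.

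Cd247, the zeta chain that carries most of the complex's tyrosine motifs and also serves receptors of natural killer cells, was not detected on either array with any of its 3 probes. Their raw intensities were 159, 142 and 133 in TERC-/- and 132, 145 and 118 in TERC+/+. No direction can be read from values at background. No probe of the zeta chain therefore adds to the values of the other 3 chains.

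Zap70, the kinase that docks on the phosphorylated CD3 chains, was detected in TERC+/+ only. Its brightest probe had raw intensities of 147 in TERC-/- and 202 in TERC+/+, with detection p of 0.0780 in TERC-/- and 0.00107 in TERC+/+. Against the lowest signal detected on the TERC-/- array, Zap70 was at least 1.66-fold lower. A further probe was likewise detected in TERC+/+ only, with raw intensities of 137 in TERC-/- and 159 in TERC+/+, and the remaining probe was at background on both arrays. The log2 difference of -1.40 from its normalized values rests on a TERC-/- value at background, so Zap70 was not counted as past 2-fold.

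**Figure D2:**
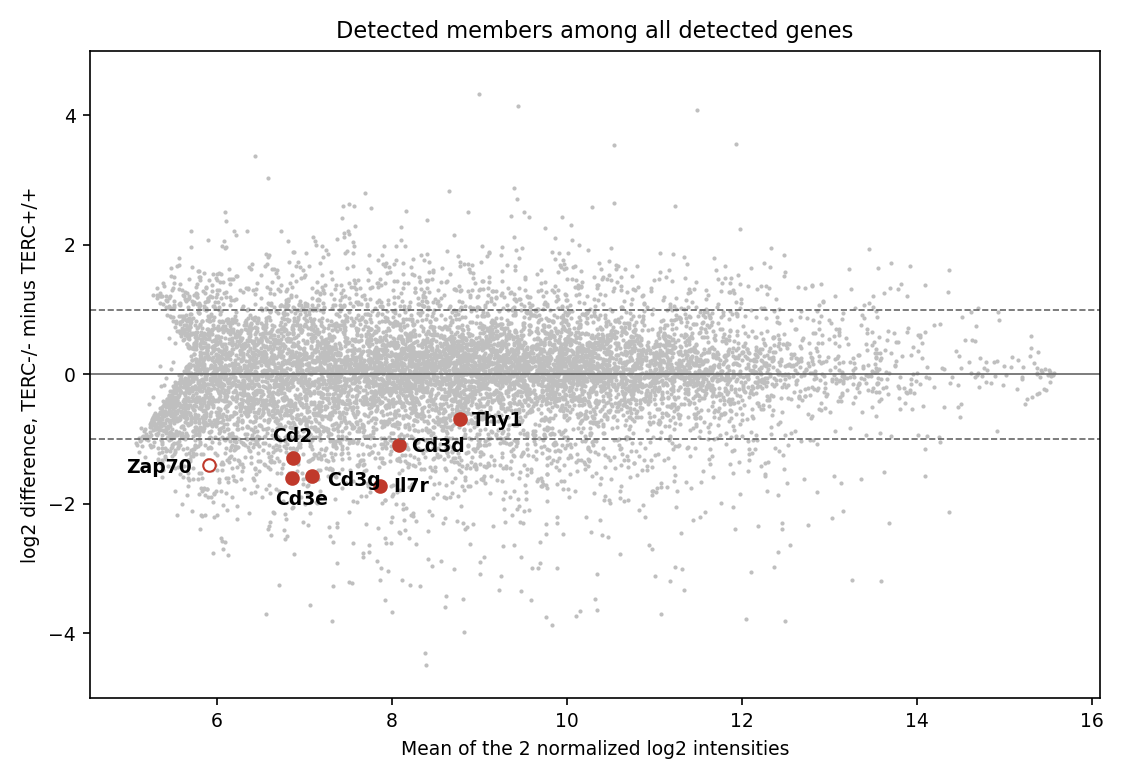
Each grey point is 1 of 9953 detected genes, with the mean of its normalized log2 intensities on the x axis and the log2 difference TERC-/- minus TERC+/+ on the y axis, and dashed lines mark 2-fold. The members (red, Zap70 open because it was detected in TERC+/+ only) all lie below 0, from -1.73 for Il7r to -0.70 for Thy1, at mean log2 values between 5.91 and 8.77.

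Cd2, an adhesion receptor that binds Cd48 on neighbouring cells in mice, had 1 probe, with raw intensities of 183 in TERC-/- and 287 in TERC+/+. The normalized log2 values were 6.22 in TERC-/- and 7.51 in TERC+/+, a difference of -1.30 or 2.46-fold. Its ligand Cd48, chosen after its value was seen, differed by -0.14. Cd5, which dampens receptor signalling and is also carried by a subset of B cells, was at background, with raw intensities of 135 in TERC-/- and 116 in TERC+/+ and detection p of 0.215 in TERC-/- and 0.398 in TERC+/+. The level of Cd5 was therefore not measurable on either array.

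Thy1, a lipid-anchored glycoprotein of mouse T cells that stromal cells and neurons also carry, was the brightest member. Its detected probe had raw intensities of 454 in TERC-/- and 655 in TERC+/+, with log2 values after normalization of 8.42 in TERC-/- and 9.12 in TERC+/+. The difference of -0.70, or 1.62-fold, was the smallest among the detected members. The other Thy1 probe was at background, with raw intensities of 135 in TERC-/- and 110 in TERC+/+. Stromal and fibroblast markers were lower as well, with 6 of 7 detected genes at least 2-fold lower, a median of -2.30 and a summed normalized intensity of 10239 in TERC-/- and 40585 in TERC+/+. Of 5 nerve markers with a probe, 2 were detected, and Tubb3, Prph and Snap25 were not. The part of stromal cells in the Thy1 difference was not tested.

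Il7r, the interleukin-7 receptor alpha chain of T cells, innate lymphoid cells and early B cells, showed the greatest difference in size among the members. Its detected probe had raw intensities of 237 in TERC-/- and 527 in TERC+/+, with log2 values after normalization of 7.0 in TERC-/- and 8.73 in TERC+/+. The difference was -1.73, or 3.31-fold, at the 2.93 percentile of the differences of all detected genes. The other 4 Il7r probes were at background on both arrays, between 115 and 134 in TERC-/- and between 115 and 133 in TERC+/+. With all 5 probes averaged, the Il7r difference was -0.43, because 4 of them carry no detected signal.

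B-lineage markers, several of them from the early stages that use Il7r, were lower in the same comparison. Of 11 detected B-cell markers, 9 passed 2-fold and all 9 were lower, against 8.81% of all detected genes at least 2-fold lower. Among the 9, Cd22 passed the detection filter only through TERC+/+, where it was higher. The B-cell list had a median of -1.80 and a summed normalized intensity of 2184 in TERC-/- and 10142 in TERC+/+. The rearrangement enzyme gene Rag1, which developing B and T cells use, was at -1.87. Of the other genes on the thymocyte list, Cd1d1 was at -0.71, and Ptcra, Rag2, Dntt, Ccr9 and Themis were not detected on either array. Among the undetected genes, Rag2 and Dntt are used by early B cells too. The part of B-lineage cells in the differences of Il7r and the other members was not tested.

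**Figure D3:**
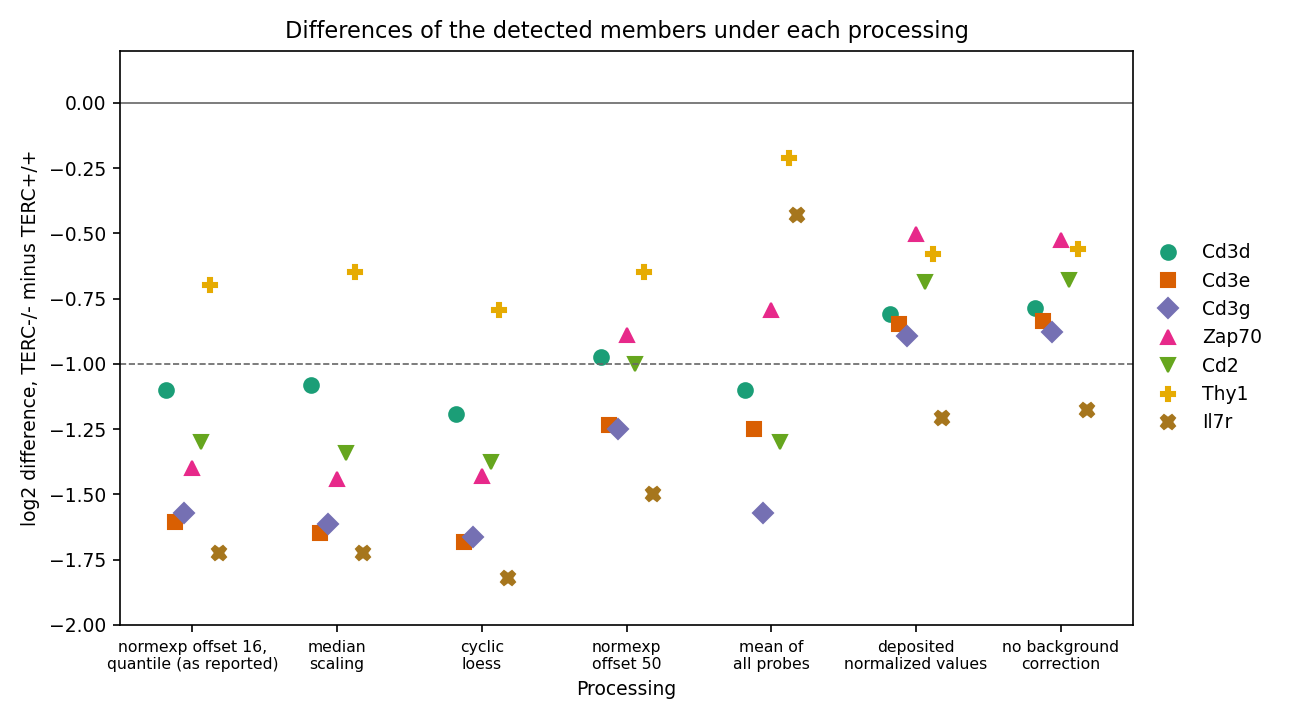
The log2 difference TERC-/- minus TERC+/+ (y axis) of each of the 7 detected members under 7 ways of processing (x axis), with a dashed line at 2-fold lower. Every point lies below 0, the values of Cd3d, Cd3e and Cd3g run from -1.68 to -0.79, and with the background left in only Il7r lies below the dashed line.

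The order of the members by size was Il7r, Cd3e, Cd3g, Cd2, Cd3d and Thy1 among those detected on both arrays. Cd3e and Cd3g differed from each other by less than the 2 Cd3e probes did, so their order is not settled. Cd2 and Cd3d changed places with no background correction, at -0.68 and -0.79, and in the deposited values, at -0.69 and -0.81. Detected genes in the brightness range of the detected members were 2-fold or more lower in 10.5% of cases and 2-fold or more higher in 7.87%, of 4434 genes. With the offset of the background correction raised to 50, Cd3d was no longer past 2-fold and 4 members were lower, against 6.93% of all detected genes. With the mean of all probes Il7r dropped out and 4 members remained, against 5.82%. The same 5 members were lower with median scaling and with cyclic loess, against 8.4% and 10.2% of all detected genes.

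Zap70 joined the 5 at a detection p under 0.05 (6 of 8 members), with no detection filter (6 of 9) and with normalized values in place of the bound (6 of 7), against 8.6%, 5.44% and 10.4% of the genes in each setting. With no filter the 9 include Cd247 at 0.53 and Cd5 at 0.18, both from values at background. At 1.5-fold the 6 members detected on both arrays were lower, and Zap70 by its bound, against 17% of all detected genes. Zap70 passed the detection filter only through TERC+/+, where it was higher. At 3-fold Cd3e and Il7r were lower, against 3.06%.

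The wider pathway lists had a median near 0, while their genes past 2-fold were mostly lower. These lists hold genes found in all blood lineages, such as Vav1, Ptpn6 and Ikzf1, and genes used chiefly by T cells. Among the latter, Icos differed by 0.44, Ubash3a by 0.36, Tespa1 by 0.06 and Sh2d2a by -0.10, chosen with their values in view. The part of either kind in the median was not tested. Of 63 detected genes on 7 lists, 9 were at least 2-fold lower, 1 was at least 2-fold higher and 53 lay within 2-fold. Their median was 0.06 while their mean was -0.07, so the 2 differ in sign. Over all 9953 genes detected on at least 1 array, 8.81% were at least 2-fold lower and 6.86% at least 2-fold higher, and the median was 0.01. Genes detected on 1 array only were counted in these figures by their bound. Among the 9, Slamf6, Cd226, Lag3 and Bcl11b passed the detection filter only through TERC+/+, where they were higher. Of 48 pathway genes detected on both arrays, 5 were at least 2-fold lower and 1 at least 2-fold higher. Over all genes detected on both arrays these shares were 8.95% and 7.29%.

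Signalling downstream of the receptor was read from 19 detected genes, whose median was 0.06. Only 3 passed 2-fold, all lower. Rasgrp1, an activator of Ras in lymphocytes, had raw intensities of 291 in TERC-/- and 579 in TERC+/+ and differed by -1.39. Lat, the membrane adaptor that Zap70 phosphorylates, had raw intensities of 437 in TERC-/- and 838 in TERC+/+ and differed by -1.18. Prkcq, the protein kinase C of the T-cell synapse, had raw intensities of 218 in TERC-/- and 347 in TERC+/+ and differed by -1.14.

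With all probes averaged none of the 3 was past 2-fold, at -0.55 for Rasgrp1, -0.54 for Lat and -0.61 for Prkcq. With no background correction Lat was at -0.97 and Prkcq at -0.69, and Prkcq was also short of 2-fold at offset 50, at -0.94, and in the deposited values, at -0.71. Skap1, an adaptor linked to integrin activation, was below detection in TERC-/- and at least 1.65-fold lower there. Other genes of the list had positive differences within 2-fold, among them Vav1, an exchange factor of all blood-cell lineages, whose raw intensity was 6689 in TERC-/- and 3063 in TERC+/+ and whose normalized difference was just short of 2-fold. Vav1 was chosen after its value was seen.

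The coreceptors could not be read as clearly. Cd4, the helper-cell coreceptor, was at the limit of detection in TERC+/+, with raw intensities of 136 in TERC-/- and 154 in TERC+/+, and neither probe of Cd8a was detected. The probes of Cd8b1, the cytotoxic coreceptor's beta chain, disagreed. The brightest had raw intensities of 4641 in TERC-/- and 2182 in TERC+/+ and differed by 0.97, while another had 155 in TERC-/- and 370 in TERC+/+, was below detection in TERC-/- and at least 4.53-fold lower there. With all its probes averaged, Cd8b1 differed by -0.75. No direction was therefore taken for Cd8b1.

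Costimulatory and checkpoint genes had a median of -0.07 over 12 detected. Past 2-fold there were 4, all lower, while 8 lay within 2-fold, and 7 of the 12 were below 0. Among the 8, Tnfrsf18 differed by 0.86, Cd69 by 0.59 and Cd6 by 0.18, chosen with their values in view. Slamf6, a self-binding receptor of lymphocytes, was below detection in TERC-/- and at least 3.67-fold lower there after background correction. In the deposited values Slamf6 differed by -1.10, and with all probes averaged by -0.90. Slamf1 of the same family, which blood stem cells also carry, was at -1.92. Cd226, an activating receptor of T and natural killer cells, and Lag3, an inhibitory receptor that binds MHC class II, were detected in TERC+/+ only. After background correction they were at least 2.12-fold and 2.23-fold lower in TERC-/-. Both were short of 2-fold in the deposited values, at -0.63 and -0.62, and with no background correction, at -0.65 and -0.64. Cd28, Ctla4, Cd40lg and Pdcd1 were not detected on either array.

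None of the 12 detected negative regulators passed 2-fold, and their median was 0.16. Pag1, a membrane adaptor that recruits the inhibitory kinase Csk, was below detection in TERC+/+ and at least 1.46-fold higher in TERC-/-. Sla2, an adaptor that lowers receptor levels, was below detection in TERC-/- and at least 1.12-fold lower there. Ptpn6, the phosphatase SHP-1 of all blood cells, differed by 0.84, and Dok2, an adaptor that restrains Ras signalling, by -0.54.

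Around Il7r, the ligand and the receptor chain were lower together while a shared kinase was higher. Il7, the cytokine itself, had raw intensities of 189 in TERC-/- and 353 in TERC+/+ on its 1 detected probe of 3 and differed by -1.62. It was short of 2-fold with no background correction, at -0.92, in the deposited values, at -0.94, and with all probes averaged, at -0.58. Jak3, the kinase of the common gamma chain, had raw intensities of 592 in TERC-/- and 268 in TERC+/+ and differed by 1.56, with its other probe at 1.49. Il4ra, the interleukin-4 receptor chain, was below detection in TERC+/+ and at least 1.59-fold higher in TERC-/-, and Il15ra, the interleukin-15 receptor chain, differed by 0.88. Of 8 detected genes on this list, 1 was at least 2-fold lower and 1 at least 2-fold higher, with a median of 0.51, and Il2rb and Il2ra were at background.

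Transcription factors of the T lineage had a median of 0.21 over 7 detected, and 1 passed 2-fold. Bcl11b, which commits progenitors to the T lineage, had raw intensities of 139 in TERC-/- and 228 in TERC+/+ on its brightest probe, was below detection in TERC-/- and at least 2.10-fold lower there. A second Bcl11b probe was also detected in TERC+/+ only, with raw intensities of 144 in TERC-/- and 155 in TERC+/+. Bcl11b was short of 2-fold in the deposited values, at -0.75, with no background correction, at -0.78, and with all probes averaged, at -0.60. Ikzf3, a zinc-finger factor of lymphocytes, was detected in TERC+/+ only, with a value below the lowest detected signal of the TERC-/- array, so no fold is given. Ikzf1, found in all blood lineages, and Klf2, found in lymphocytes and endothelium, differed by 0.93 and 0.76, and Lef1, Gata3 and Tbx21 were at background. Of the homing receptors, Cxcr3, a receptor of activated T cells, differed by -0.87, while Ccr7 and 1 of 6 probes of Itgae were detected in TERC+/+ only and too dim there for a bound.

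**Figure D4:**
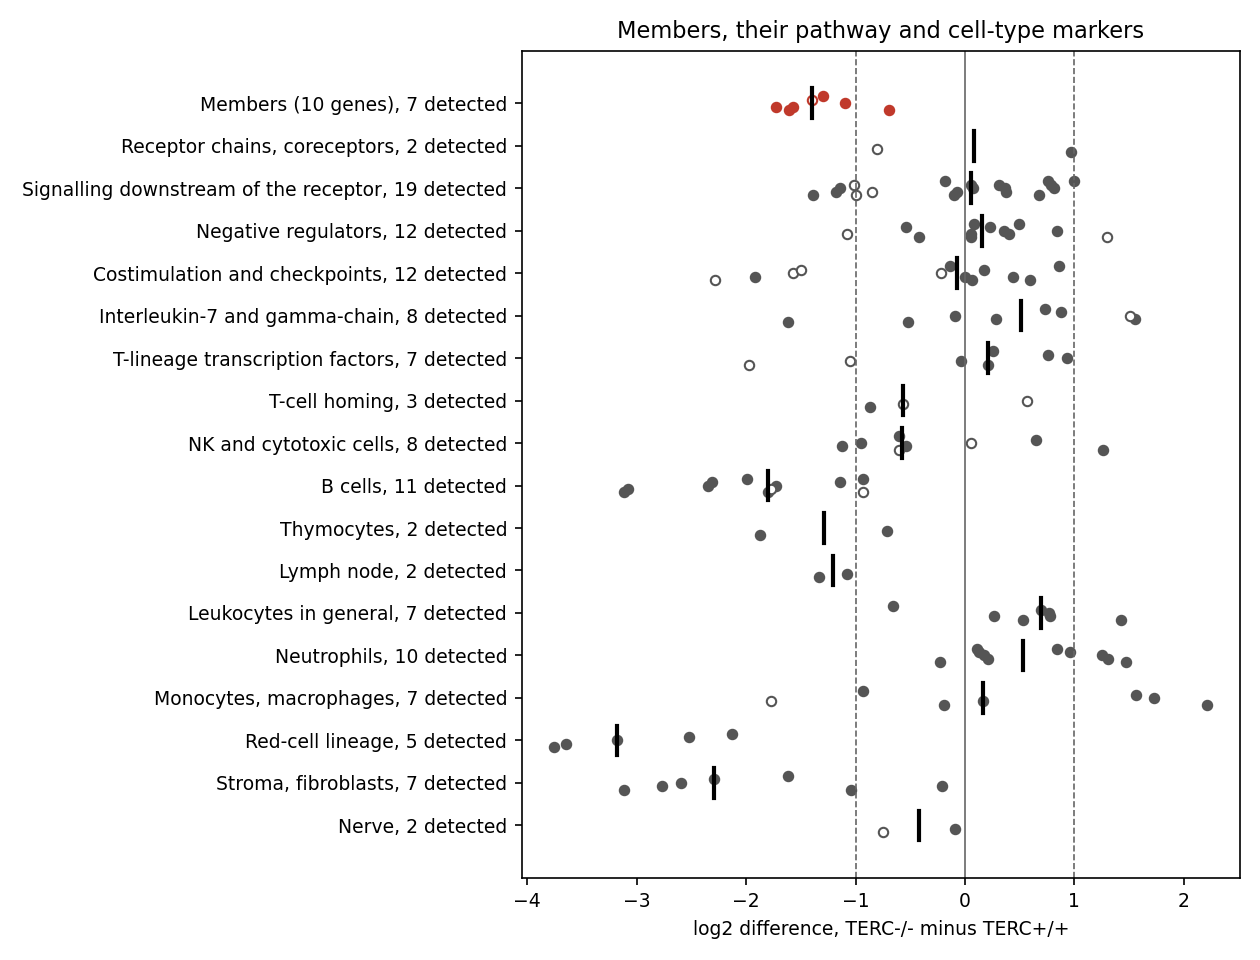
Each point is a detected gene, placed by its log2 difference TERC-/- minus TERC+/+ (x axis) in the row of its list (open where detected on 1 array only), with black bars at list medians and dashed lines at 2-fold. The members (red, median -1.40 over 7) lie to the left, as do the B-cell, red-cell and stromal markers, while the markers of leukocytes in general and of neutrophils have medians of 0.69 and 0.53.

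Other cells share several members, and their markers moved in both directions. Natural killer cells use Cd247, Zap70 and Cd2. Of 8 detected natural killer and cytotoxic genes, 1 was at least 2-fold lower and 1 at least 2-fold higher. The median was -0.57, and 5 of the 8 were below 0. Their summed normalized intensity was 13855 in TERC-/- and 10429 in TERC+/+, a sum that the bright Nkg7 and Tyrobp probes dominate. Tyrobp differed by 0.64. Ccl5, a chemokine of T and natural killer cells, was at -1.12, Klre1 at -0.95 and Nkg7 at 1.27. The natural killer receptor Ncr1, and Gzmb, Gzmk and Il2rb, were not detected on either array. The part of natural killer cells in the member differences was not tested.

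Markers of leukocytes in general had a positive median. It was 0.69 over 7 detected, 1 of them past 2-fold and higher. Ptprc, the common leukocyte antigen CD45, had raw intensities of 498 in TERC-/- and 345 in TERC+/+ and differed by 0.69. Neutrophil markers past 2-fold numbered 3 of 10, all higher, and the list had a summed normalized intensity of 306834 in TERC-/- and 244889 in TERC+/+. Monocyte and macrophage markers went both ways, with a median of 0.16 over 7 detected and a summed normalized intensity of 10266 in TERC-/- and 9765 in TERC+/+. Itgam, Cd14 and Ccr2 were past 2-fold and higher, while Siglec1 was at least 1.86-fold lower and Adgre1, named with its value in view, differed by -0.94. Of 5 detected red-cell markers, 5 were at least 2-fold lower.

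Lymph node tissue, which could be carried along with a dissected bone, was examined through 5 marker genes with a probe. The chemokines Ccl21a and Ccl19, which draw T cells into lymph nodes, were at -1.34 and -1.08. Raw intensities for Ccl21a were 233 in TERC-/- and 418 in TERC+/+. Both were short of 2-fold with no background correction, at -0.87 and -0.49, and in the deposited values, at -0.89 and -0.49. Glycam1, Madcam1 and Cr2, which mark lymph node vessels and follicles, were not detected on either array. The part of lymph node tissue in the member differences was not tested.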

How the data were processed

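Tibia RNA of TERC-/- and TERC+/+ mice was compared on Illumina bead arrays, 1 pool of 3 mice per genotype, grouped by the genotype label. Per the labels' protocols, RNA was extracted with Trizol, column-purified, treated with DNase and amplified to biotin-labelled cRNA. The authors deposited non-normalized intensities with a detection p-value per probe, per the file headers, and a table of normalized intensities whose method is not given in the sources used here.

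Raw intensities were background-corrected with the normexp model from the detection p-values (nec of limma 3.58.1, R 4.3.3, offset 16), quantile normalized and taken to log2. A gene was its brightest probe by mean log2 value. Genes detected at p under 0.01 on at least 1 array were compared as TERC-/- minus TERC+/+ and counted at 2-fold, which is a size threshold without a test. A gene detected on 1 array only was given as a bound. It was set against the other array's lowest detected signal or the gene's own value there, whichever was higher. Bounds hold for background-corrected values only, and most of those given exceed the whole difference in the deposited values. On the log2 scale Zap70 had a bound of -0.73 and a deposited difference of -0.50, and Skap1 had -0.72 and -0.38. The bound of Sla2, -0.16, was smaller than its deposited difference of -0.34. The annotation paired 34885 of the 45281 probes with 1 symbol, which were used, 18 with more than 1, and 10378 with no symbol here. Symbols of all 19 member probes were unchanged through the RefSeq gene table. The procedure was tested on simulated data.

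Members and lists were chosen with earlier results of these data known. Named genes are all members, Terc, and from each list at most 4 detected genes ranked by the size of their difference; other genes given with values were picked with those values in view. The alternatives covered background correction, offset, normalization, deposited values, detection filter, probe rule, size threshold and, added after the data were seen, normalized values in place of the bound and the recomputation of the pathway lists. Precision is limited by having 1 array per genotype. Figures were drawn with matplotlib 3.10.9.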

Additional observations from a re-analysis of the deposited data

How the results depend on the processing

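No test was possible with 1 array per genotype, and no paired analysis was possible because each genotype has 1 array, which leaves no spread to estimate. All 7 detected members stayed below 0 under the 6 alternatives that change their values. The number at least 2-fold lower was 5 as reported, 1 with no background correction, 1 in the deposited normalized values and 2 at 3-fold, and their median was -0.79 with no background correction and -0.81 in the deposited values. No member was 2-fold higher in any setting. Over all detected genes, 877 were lower and 683 higher as reported, 487 and 356 with no background correction, 506 and 362 in the deposited values, 1693 and 1689 at 1.5-fold and 305 and 175 at 3-fold, and 579 were lower with the mean of all probes. In the pathway lists, 9 of 63 detected genes were lower as reported and 2 with no background correction. There were 5 at offset 50, 3 in the deposited values, 2 with the mean of probes and 3 at 3-fold. Of 48 detected on both arrays, 5 were lower. Over all genes, shares lower were 8.81% as reported, 4.89% with no background correction, 6.93% at offset 50 and 5.08% in the deposited values. They were 5.82% with the mean of probes, 3.06% at 3-fold and 8.95% among genes detected on both arrays. In the pathway lists 1 gene was higher as reported, 5 with median scaling, 15 at 1.5-fold and 0 at 3-fold. Higher too were 2 of 72 at detection p under 0.05, 3 of 94 with no detection filter and 3 with normalized values in place of the bound. Over all genes, 787 of 9953 were higher with median scaling and 774 with normalized values. A background left in shrinks the log2 difference of a dim probe by construction, and the members are dim, between 5.91 and 8.77 in mean log2 value. Of 42 recomputed member differences 28 stayed on their side of 2-fold and moved by less than 1.5-fold.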

Other observations

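Probes of T-cell receptor variable segments, chosen after the annotation was seen, give a readout of T cells that no member probe uses. Of 9 such probes, 7 had 1 symbol, and 1 of these was detected. It belongs to Trbv13-2, a segment of the beta chain, and had raw intensities of 247 in TERC-/- and 566 in TERC+/+, which after normalization differed by -1.73 on the log2 scale. The other probe with Trbv13-2 as its 1 symbol was at background, with raw intensities of 131 in TERC-/- and 138 in TERC+/+. The probes of Trbv13-1, Trgv4, Trgv5, Trgv6 and Trgv7 were at background on both arrays. Of the 2 probes with several symbols, that of Trbv13-2 and Trbv1 was at background, with raw intensities of 136 in TERC-/- and 105 in TERC+/+. That of the Trav14 segments was detected in TERC+/+ only, with raw intensities of 141 in TERC-/- and 152 in TERC+/+. A variable segment is used by some T cells only, and its probe may share signal with related segments.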
